A study of Mus musculus with 7 samples.

Results

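The genes described here are 10 transcription factor and chromatin regulator genes of the naive pluripotency network, namely Pou5f1, Nanog, Klf2, Klf4, Klf5, Zfp42, Tfcp2l1, Prdm14, Tbx3 and Utf1. They were taken by name, out of 21887 protein-coding genes, from a list drawn up with earlier results of these data known, and examined for binding sites of Oct1 and Oct4 in mouse embryonic stem cells (ESCs). Binding was measured by ChIP-seq, in which DNA crosslinked to a protein is recovered with an antibody and sequenced. A peak, that is an interval that the authors listed as bound, was assigned to a gene when any of its bases fell inside the annotated gene or no more than 10 kb away, and a wider distance of 50 kb was read in addition. The gene table used gives no exons, so peaks inside genes are not split into exonic and intronic ones. All cells carried the parental genotype, so the conditional knockout is in none of the groups used. The lists cover Oct1 and Oct4 in undifferentiated ESCs, and Oct1 at day 3 and at day 6 of differentiation towards mesoderm. The differentiation protocol stated for both times was 2 days with Bmp4 and the next 4 days with Rspo3 and the BMP receptor inhibitor LDN-193189. Cells taken at day 3 were part of the way through it. Each of the 4 groups was 1 library, so there is no replicate spread to set a difference against, and no test between groups was made. Peak lists measure binding and not RNA, so the labelled cell states could not be checked against expression markers.

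Naive pluripotency is the state of the early epiblast that mouse ESCs keep in culture under LIF and WNT stimulation. It is maintained by transcription factors that bind one another's genes, with Oct4 (the product of Pou5f1), Sox2 and Nanog at the centre and Klf2, Klf4, Klf5, Tfcp2l1, Tbx3 and Prdm14 around them. Most of these genes are switched off when the cells leave the naive state. Oct1 (the product of Pou2f1) is a broadly expressed relative of Oct4, and both recognise the octamer sequence through a POU domain.

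Sequences are shown for the 4 genes with a matched promoter window under a peak, to let the sites listed in ESCs be set beside those listed at day 6. RefSeq promoter windows, which run from 250 bases before to 50 bases after an annotated start (build GRCm38.p6), were matched for 7 of the 10 genes, all but Klf5, Prdm14 and Tbx3. The bases before the start are printed 5′ to 3′ on the gene's strand. For Zfp42 (chr8:43307010-43307259, minus strand) the window lay under peaks of ESC Oct1, ESC Oct4 and day 3 Oct1, and the capitals mark the octamer, here read as ATTTGCAT, the reverse complement of ATGCAAAT. For Nanog (chr6:122707239-122707488, plus strand) the window lay under an ESC Oct1 peak, and the capitals mark TTTGCAT, the octamer without its last base, and ACAATG, the reverse complement of the Sox core CATTGT, which was 1 base away. The window of another Nanog start (chr6:122707315-122707564) lay under the same peak, held the same motif matches and is not shown.
Zfp42: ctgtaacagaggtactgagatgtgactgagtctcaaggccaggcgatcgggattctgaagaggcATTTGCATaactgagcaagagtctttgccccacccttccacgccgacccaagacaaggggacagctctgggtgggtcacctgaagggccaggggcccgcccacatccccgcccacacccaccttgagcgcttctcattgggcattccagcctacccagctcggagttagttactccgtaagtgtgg
Nanog: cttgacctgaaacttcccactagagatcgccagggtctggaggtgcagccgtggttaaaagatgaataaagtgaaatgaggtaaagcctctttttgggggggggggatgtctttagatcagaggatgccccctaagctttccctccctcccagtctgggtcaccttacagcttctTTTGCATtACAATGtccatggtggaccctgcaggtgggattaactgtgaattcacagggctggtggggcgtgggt

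For Klf2 (chr8:72318812-72319061, plus strand) and Klf4 (chr4:55532476-55532725, minus strand) the windows lay under day 6 Oct1 peaks and held none of the 5 motifs searched, and the capitals mark CpG dinucleotides.
Klf2: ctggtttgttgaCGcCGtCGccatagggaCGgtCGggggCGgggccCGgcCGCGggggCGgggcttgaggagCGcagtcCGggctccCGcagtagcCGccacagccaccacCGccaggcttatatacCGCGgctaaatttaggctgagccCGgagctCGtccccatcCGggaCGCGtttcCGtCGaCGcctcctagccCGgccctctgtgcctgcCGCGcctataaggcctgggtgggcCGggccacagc
Klf4: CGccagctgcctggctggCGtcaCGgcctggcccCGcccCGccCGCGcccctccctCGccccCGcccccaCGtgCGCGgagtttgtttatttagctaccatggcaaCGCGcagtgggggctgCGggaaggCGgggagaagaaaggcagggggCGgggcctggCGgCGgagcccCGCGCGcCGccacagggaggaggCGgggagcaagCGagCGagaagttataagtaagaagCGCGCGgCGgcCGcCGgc

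Motifs were searched on both strands. The promoter windows belong to 27025 genes, more than the 21887 protein-coding genes. Shares and medians over windows are therefore not restricted to protein-coding genes. The octamer ATGCAAAT was found in 1.74% of all 32851 promoter windows, in 6.19% of the 1566 windows with an ESC Oct1 peak, in 2.39% of the 1214 windows with an ESC Oct4 peak, in 3.58% of the 3213 windows with a day 3 peak and in 1.44% of the 7032 windows with a day 6 peak. Among the windows of the 7 matched genes, only that of Zfp42 held it, from 186 to 179 bases before the start. The relaxed POU site ATGCNNAT, which includes the octamer, matched 8.93% of all windows and again only Zfp42 among these genes. The sequence ATGCATAT, part of the palindrome called MORE that binds POU dimers, matched 0.77% of all windows and none of the members. The shortened octamer ATGCAAA, which also lies inside the octamer, was in 4.63% of all windows and in 10.3% of those with an ESC Oct1 peak, and the Sox core in 12.6% and 9.77%. The shortened octamer and the Sox core were chosen after the Nanog sequence had been seen. The Sox core was also in the window of a second Pou5f1 start that lies inside the gene, which had no peak in any list. A match is a description of the letters and not evidence of a bound site. The Klf4 sequence held 32 CpG dinucleotides and that of Klf2 held 29, against 9 for Zfp42 and 3 for Nanog. Matched sequences without a peak in any list held 16 at Tfcp2l1, 14 at Utf1, and 8 and 6 at the Pou5f1 starts. The median was 6.0 over all windows and 21.0 over windows with a day 6 peak, with 8.0 under ESC Oct1, 6.0 under ESC Oct4 and 20 under day 3 peaks. The Zfp42 sequence, under a peak in both ESC lists and at day 3, was below the day 3 median.

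In ESCs most of these genes had an Oct1 peak nearby, and fewer had one of Oct4. Oct1 peaks were listed at 8 of the 10 genes (all but Klf4 and Klf5), where 35.2% of all protein-coding genes had one. Since the genes were chosen with such results known, this count is a description. Oct4 peaks were listed at 5 of them (Pou5f1, Klf2, Zfp42, Prdm14 and Utf1), near the 40.2% of all genes. At day 3, Oct1 peaks were listed at 4 genes (Pou5f1, Zfp42, Tbx3 and Utf1), against 24.6% of all genes. At day 6 they were listed at 5 (Pou5f1, Klf2, Klf4, Klf5 and Tbx3), against 41.5%. Both later peaks counted for Pou5f1, here and below, were nearer to another gene, Cchcr1. The median number of ESC Oct1 peaks was 1.0 per member gene and 0.0 per gene over all genes, and the mean was 1.2 and 0.737. For ESC Oct4 the median was 0.5 and 0.0, but the mean was lower for the members, 0.9 against 1.0.

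The count for ESC Oct1 stood above the background at 10 kb and less so at 50 kb. Within 50 kb the same 8 genes had ESC Oct1 peaks, against 58.7% of all genes. ESC Oct4 peaks then also reached 8 genes, against 62.5%, with Nanog, Tfcp2l1 and Tbx3 added. Day 3 peaks stayed at 4 genes, against 41.5%, and day 6 peaks were listed at 6, against 57.9%, with Utf1 added. With a distance of 5 kb, 5 genes had an ESC Oct1 peak (29.5% of all genes) and 2 had a day 3 peak (21.5% of all genes), since the peaks at Klf2, Prdm14, Tbx3 (ESC), Pou5f1 and Utf1 (day 3) lay farther out. At that distance 4 genes had an ESC Oct4 peak (34.0% of all genes) and 4 a day 6 peak (38.0%). With the upper 50% of scores of each list alone, 2 genes (Pou5f1 and Klf4) had a day 6 peak, against 25.0% of all genes. Under the same setting 6 genes had an ESC Oct1 peak (24.3% of all genes), 4 an ESC Oct4 peak (26.6%) and 3 a day 3 peak (15.0%). The shares over all genes under these settings were added after the member counts had been seen.

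**Figure D1:**
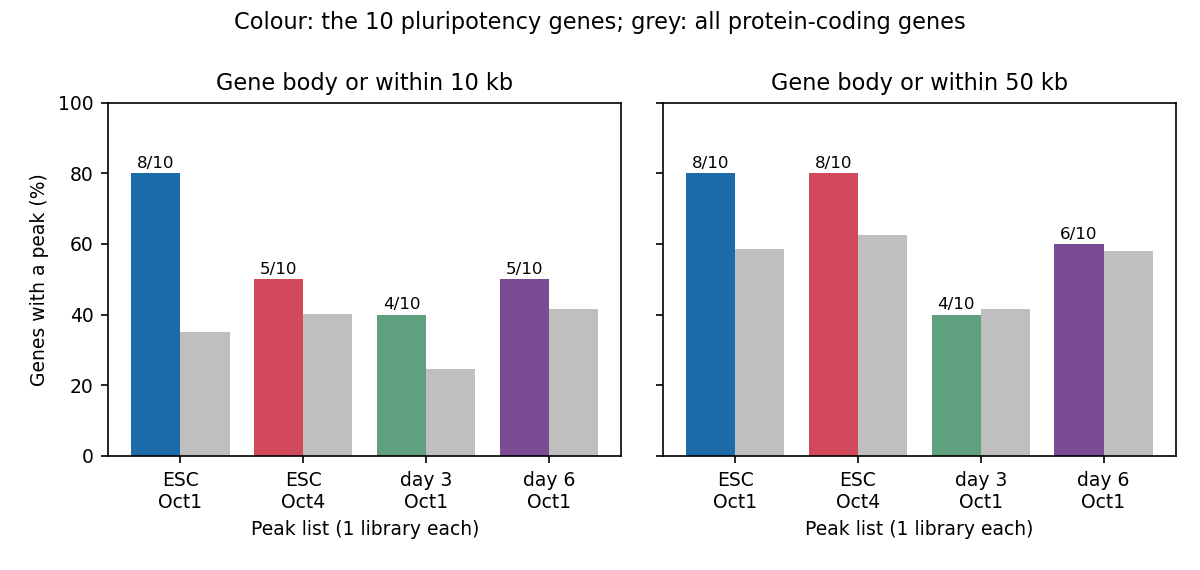
Share of genes (%) with a peak inside them or at most 10 kb (left) or 50 kb (right) away in each list, for the 10 pluripotency genes (coloured bars, with the number of genes above each) and for all 21887 protein-coding genes (grey bars). The widest gap between the bars is that of ESC Oct1 at 10 kb, 8 of 10 genes against 35.2%.

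The member genes were shorter than genes in general, with a median length of 9.54 kb against 17.2 kb, and ranged from 1257 bp (Utf1) to 57246 bp (Tfcp2l1). Among the 15575 protein-coding genes within that range of lengths, an ESC Oct1 peak was listed within 10 kb of 34.9%. The share was 40.6% for ESC Oct4, 25.3% for Oct1 at day 3 and 44.2% at day 6. That range holds most protein-coding genes and was not matched to the median length of the members. These shares therefore had little room to differ from those over all genes and do not control for length.

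Near these genes, as over the whole lists, most later Oct1 peaks did not overlap an ESC Oct1 peak. The 30 peaks within 10 kb fell on 22 separate sites, where overlapping peaks of different lists form 1 site. Of these, 16 were occupied in ESCs, 5 of them by both factors, and 7 at day 3 or day 6, of which 2 at both times. Only 1 site, the start of Zfp42, was occupied both in ESCs and later. Of the 8 genes with Oct1 peaks in ESCs, 5 had one again at day 3 or day 6, close to the 64.0% among all 7715 protein-coding genes with Oct1 peaks in ESCs. The peaks overlapped at 1 of the 5, and 0 of the 12 ESC Oct1 peaks overlapped a day 6 peak. Over the whole ESC Oct1 list, 8.88% of peaks overlapped a day 3 peak and 6.66% a day 6 peak, so with 12 peaks a count of 1 and of 0 is near the background. Seen from the later lists, 1 of the 4 day 3 peaks and 0 of the 5 day 6 peaks near these genes overlapped an ESC Oct1 peak, against 32.3% and 15.2% of those lists as a whole. Between the later lists, 2 of the 4 day 3 peaks overlapped a day 6 peak, against 58.5% of the day 3 list. Likewise 2 of the 5 day 6 peaks overlapped a day 3 peak, against 36.6% of the day 6 list. Both counts are near the background. Within 50 kb, 3 of 47 sites were occupied both in ESCs and later, at Zfp42, Tbx3 and Utf1.

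Pou5f1 encodes Oct4 itself (gene ID 18999; chromosome 17, 35506032 to 35510777, plus strand). It had 3 Oct1 and 3 Oct4 peaks in ESCs, which paired at 3 sites. The first pair had its midpoints 2.01 kb (Oct4) and 1.99 kb (Oct1) upstream of the start, 15.0 bp apart, in the upstream region where the distal and proximal enhancers of the gene are known to lie. Its Oct4 peak (35503711 to 35504340) had a score of 3408 and ranked 13 of 22817, and its Oct1 peak (35503771 to 35504310) had a score of 597 and ranked 675 of 17709. The score is the authors' whole number per peak, which has no stated unit and is read here only within its list. This was the strongest site of either factor near the gene.

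The second pair lay closer to the start, with midpoints 1.06 kb (Oct1, score 315, rank 1821) and 1.12 kb (Oct4, score 168, rank 8068) upstream. The third lay inside the gene, where the Oct1 peak (35509081 to 35510000) had a score of 131 and the Oct4 peak (35509031 to 35509580) one of 189. In each list the site farthest upstream had the highest of the 3 scores, at percentile 96.2 of its list for Oct1 and 99.9 for Oct4. Here a percentile is the share of peaks in the same list with a lower score, ties counted in equal parts. None of the 3 sites had an Oct1 peak at day 3 or day 6.

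The later Oct1 peaks assigned to Pou5f1 were at another place. The day 3 peak (35516611 to 35517350, score 215) and the day 6 peak (35516661 to 35517360, score 859) lay 5.83 and 5.88 kb beyond the gene's 3′ end, with midpoints 30.0 bp apart. Both covered an end of Tcf19 and an end of Cchcr1, the protein-coding gene nearest to their midpoints. When a peak was assigned only to the nearest protein-coding gene, Pou5f1 had no later Oct1 peak. Between 10 and 50 kb, in ESCs alone, the strongest Oct1 peak (score 242, percentile 84.4) lay 28.8 kb away, nearest to Cdsn, and the single Oct4 peak (score 91, percentile 17.4) lay 21.8 kb away, nearest to Psors1c2, where it overlapped a weaker Oct1 peak.

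Nanog, a homeodomain factor that stabilises self-renewal (gene ID 71950; chromosome 6, 122707489 to 122714633, plus strand), had a single peak within 10 kb. It was an ESC Oct1 peak across the start (122707231 to 122707740, score 214, rank 3399, percentile 80.8). The shortened octamer shown above lay under it, 68.5 bp from its midpoint. No Oct4 peak was listed there, and the nearest one (122686781 to 122687610, score 241, percentile 86.0) was 19.9 kb upstream, without an Oct1 peak. Farther upstream, at 39.7 and 44.1 kb, were 2 further ESC Oct1 peaks, both overlapped by Oct4 peaks and nearest to Dppa3, a germline and preimplantation gene. The stronger of them had a score of 204 (percentile 79.5).

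Zfp42 encodes Rex1, a zinc finger protein widely used as a marker of the naive state (gene ID 22702; chromosome 8, 43295067 to 43307009, minus strand). Its start carried the strongest ESC Oct1 site of the 10 genes, where the peak (43306811 to 43307480) had a score of 2665 and ranked 119 of 17709, at percentile 99.3. The ESC Oct4 peak on the same site (43306881 to 43307410) had a score of 1149 and ranked 42 of 22817, and the midpoints of both peaks coincided. The octamer shown above lay 46.0 bp from that midpoint. At day 3 an Oct1 peak remained listed there (43306871 to 43307370, score 383, rank 1072 of 4867, percentile 78.0), its midpoint 25.0 bp from the ESC one, and at day 6 none was listed. Scores and ranks of different lists share no scale, so this gives presence and not a change in strength. A second ESC Oct4 peak (43295611 to 43296120, score 217) lay inside the gene near its 3′ end and had no Oct1 peak.

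The Krüppel-like factors Klf2, Klf4 and Klf5 are zinc finger proteins that act redundantly in ESC self-renewal, Klf4 under LIF signalling. Klf4 (gene ID 16600; chromosome 4, 55527137 to 55532475, minus strand) and Klf5 (gene ID 12224; chromosome 14, 99298691 to 99313412) had no peak of either factor within 50 kb in ESCs and none at day 3. Each had 1 Oct1 peak at day 6. That of Klf4 (55532321 to 55533250) covered the start with a score of 737, which ranked 2636 of 7758 (percentile 66.0). That of Klf5 (99298391 to 99299000) covered the end of the gene with the lower coordinate, with a score of 345 (percentile 34.5).

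Klf2 (gene ID 16598; chromosome 8, 72319062 to 72321654, plus strand) also had a day 6 peak across its start (72318581 to 72319260, score 351, percentile 35.1). Unlike the other two it had peaks in ESCs, but away from the start. The ESC Oct1 peak (72310881 to 72311520, score 179, percentile 75.5) had its midpoint 7.86 kb upstream. The ESC Oct4 peak (72331141 to 72331840, score 217, percentile 81.2) lay 9.49 kb beyond the 3′ end and was nearer to Eps15l1. Neither overlapped a peak of another list. Farther out, the strongest ESC Oct1 peak (score 108, percentile 50.7) lay 39.8 kb away and the strongest ESC Oct4 peak (score 114, percentile 32.8) 30.8 kb away, both nearest to Ap1m1.

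Tfcp2l1, a transcription factor downstream of LIF and WNT signals (gene ID 81879; chromosome 1, 118627923 to 118685168, plus strand), had 3 ESC Oct1 peaks, all inside the gene. Their scores were 179 (118647901 to 118648420), 122 (118650271 to 118650900) and 53 (118669001 to 118669650), at percentiles 75.5, 57.5 and 9.57. Their midpoints lay 20.2, 22.7 and 41.4 kb downstream of the start. None overlapped an Oct4 peak, the nearest of which (118698991 to 118699490, score 104) was 13.8 kb beyond the 3′ end, and no Oct1 peak was listed within 50 kb at day 3 or day 6.

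Prdm14, a chromatin regulator that represses differentiation signals in ESCs and is needed for germ cells (gene ID 383491; chromosome 1, 13113428 to 13127163), had peaks in ESCs and none later. A site 9.13 kb from the gene had both an Oct1 peak (13103591 to 13104300, score 100, percentile 46.6) and an Oct4 peak (13103651 to 13104230, score 93, percentile 18.3), with midpoints 5.0 bp apart. An Oct4 peak inside the gene (13125421 to 13125970) was stronger within its list (score 244, percentile 86.7) and had no Oct1 peak. The Oct1 peak with the highest score near the gene (282, percentile 87.6) lay 36.6 kb away without an Oct4 peak.

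Tbx3 encodes a T-box factor that supports naive self-renewal and is used again in mesoderm and limb development (gene ID 21386; chromosome 5, 119670534 to 119684724). Within 10 kb it had a weak ESC Oct1 peak (119660301 to 119660860, score 69, percentile 19.6) at 9.67 kb and no Oct4 peak. Its end with the lower coordinate was covered by an Oct1 peak at day 3 (119670401 to 119671200, score 257, percentile 62.5) and at day 6 (119670341 to 119671040, score 205, percentile 20.4), and by none in ESCs. The strongest ESC site lay farther out, 21.6 kb from the other end. There the Oct1 peak (119706351 to 119706980) had a score of 728 and ranked 520 of 17709, and the Oct4 peak (119706341 to 119706960) had a score of 390 and ranked 653 of 22817, both at percentile 97.1. A day 3 Oct1 peak covered the same site (119706321 to 119706990, score 195, percentile 50.1), and no day 6 peak did.

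Utf1, a chromatin-associated protein of pluripotent cells and a long-known target of Oct4 with Sox2 (gene ID 22286; chromosome 7, 139943856 to 139945112, plus strand), had an ESC Oct1 peak (139949881 to 139950390, score 207, percentile 80.3) 4.77 kb beyond its 3′ end. A day 3 Oct1 peak (139950511 to 139951050, score 120, percentile 30.8) lay next to it without overlap, 5.40 kb beyond the gene. The ESC Oct4 peak within 10 kb (139940521 to 139941050, score 119, percentile 36.1) was upstream, with its midpoint 3.07 kb from the start, and was nearer to Kndc1. Between 10 and 50 kb Utf1 had 9 ESC Oct4 peaks, more than any other of the 10 genes, and all of them were nearest to Kndc1, Spef1l or Adam8. The strongest of them (score 224, percentile 82.6) lay 34.8 kb away, and the strongest of the 3 ESC Oct1 peaks at that range (score 191, percentile 77.3) lay 12.6 kb away. Of 2 day 6 Oct1 peaks, the stronger (score 128, percentile 10.9) lay 28.9 kb away without a peak of another list. The other (139984661 to 139985190, score 77, percentile 3.87), 39.5 kb beyond the gene and nearest to Adam8, overlapped an ESC Oct1 peak (score 72, percentile 25.7) and an ESC Oct4 peak (score 110, percentile 29.5).

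**Figure D2:**
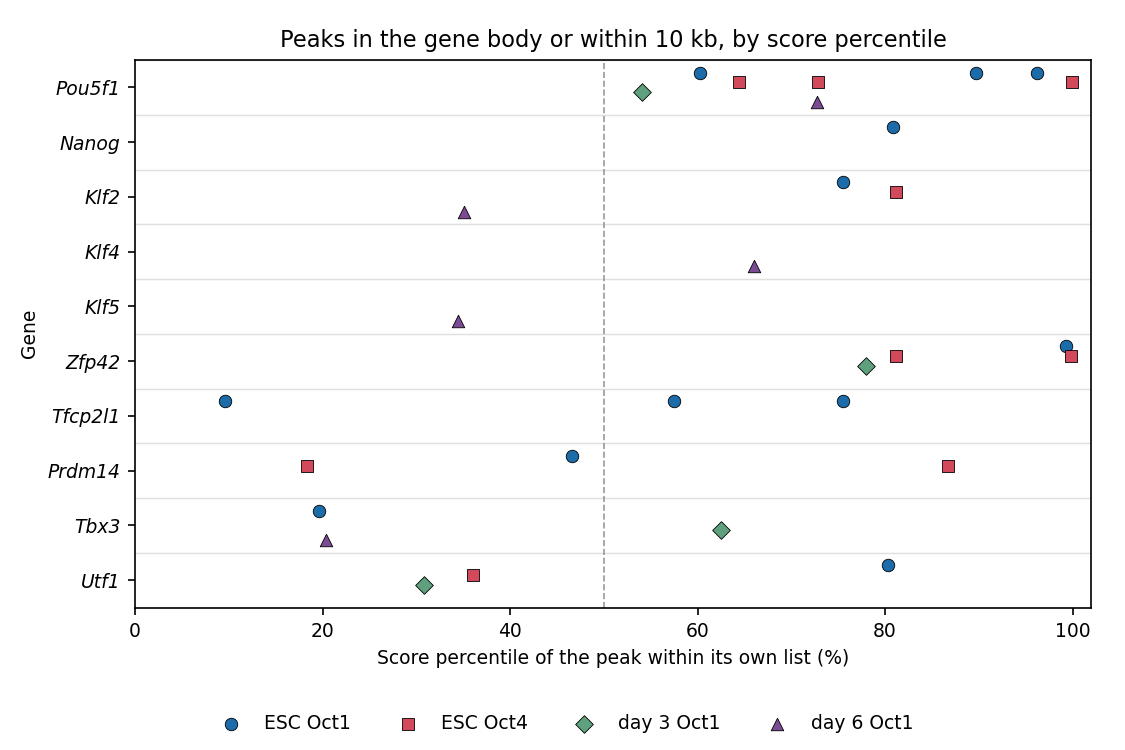
Score percentile (x axis, %, within each peak's own list) of the 30 peaks inside or at most 10 kb from the 10 genes (rows), with a colour and a symbol for each of the 4 lists, and a dashed line at 50. The ESC pair farther upstream of the Pou5f1 start and the ESC pair at the Zfp42 start reach the highest percentiles, from 96.2 to 99.9, and the day 6 peaks lie between 20.4 and 72.7.

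The member peaks differed between lists in where they lay. In ESCs, 2 of the 12 Oct1 peaks within 10 kb (at Nanog and Zfp42) and 1 of the 9 Oct4 peaks (at Zfp42) covered an end of a protein-coding gene. At day 3 the count was 3 of 4 peaks (Zfp42, Tbx3, and the Tcf19 and Cchcr1 ends near Pou5f1), and at day 6 it was 5 of 5. Over all peaks within 10 kb of a protein-coding gene, the shares were 7.67% for ESC Oct1, 4.59% for ESC Oct4, 52.6% at day 3 and 67.7% at day 6. The members thus follow the order of the lists as a whole, and with so few peaks no departure from it can be read.

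**Figure D3:**
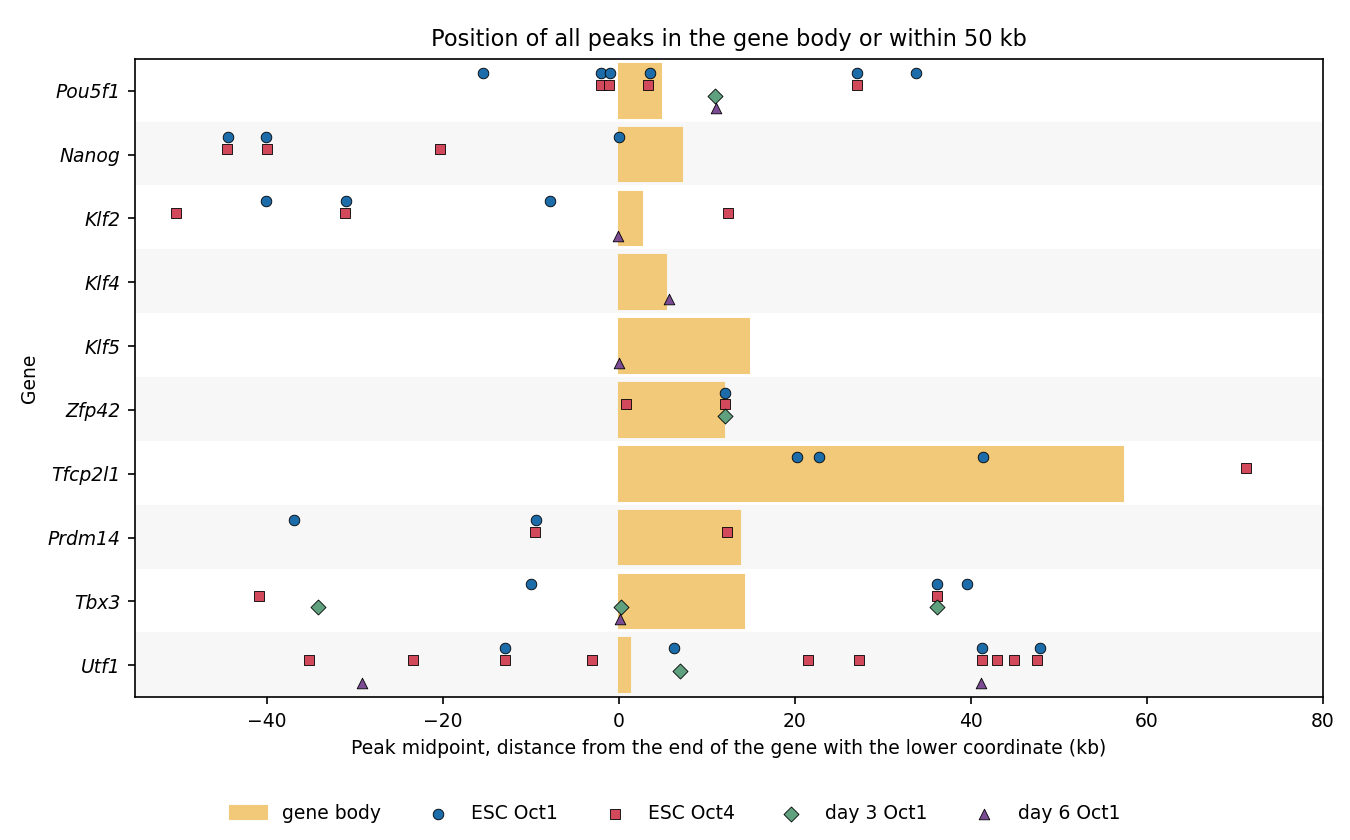
Midpoint of each of the 65 peaks inside or at most 50 kb from the 10 genes (rows), as distance (kb) from the end of the gene with the lower coordinate, with the gene body shaded and a colour and a symbol per list. Symbols stacked in a row at the same distance are peaks of different lists on 1 site, as at the Zfp42 start (the right end of its gene body). The day 6 peaks at Klf2, Klf4, Klf5 and Tbx3 sit at a gene end, while most ESC peaks do not.

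Oct1 and Oct4 shared some of the ESC sites of these genes. Of the 12 ESC Oct1 peaks within 10 kb, 5 overlapped an Oct4 peak, at Pou5f1 (3), Zfp42 and Prdm14, against 59.1% of the whole list. Of the 9 ESC Oct4 peaks, 5 overlapped an Oct1 peak, against 46.0%. Within 50 kb, 13 of 25 Oct1 peaks and 13 of 27 Oct4 peaks were shared. The midpoints of the 5 shared peaks within 10 kb were between 0.0 and 235.0 bp apart, the widest at the site inside Pou5f1. The 7 ESC Oct1 peaks without Oct4 were those at Nanog, Klf2, Tbx3 and Utf1 and the 3 inside Tfcp2l1.

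The 10 genes fell into 7 combinations of lists, each combination being the set of lists with a peak within 10 kb. Oct1 in ESCs alone was the combination of Nanog and Tfcp2l1 and of 569 protein-coding genes in all (2.60%). Oct1 at day 6 alone was that of Klf4 and Klf5 and of 2024 genes (9.25%). Zfp42 and Utf1 shared the combination of both ESC lists and day 3, which 551 genes had (2.52%). Both ESC lists alone was that of Prdm14 (2209 genes, 10.1%), and both ESC lists with day 6 that of Klf2 (1560 genes, 7.13%). Oct1 at all 3 times without Oct4 was found for Tbx3 (451 genes, 2.06%), and Pou5f1 had peaks in all 4 lists, as did 2010 genes (9.18%). Its day 3 and day 6 peaks were nearer to Cchcr1. No peak in any list was the combination of 7988 genes (36.5%) and of no member.

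The distance of 10 kb decided several assignments. Just inside it were the ESC Oct1 peak of Tbx3 (9.67 kb), the ESC Oct4 peak of Klf2 (9.49 kb) and the shared site of Prdm14 (9.13 kb for Oct1). Just outside it were a site near Utf1 with both factors (12.6 kb for Oct1), the ESC Oct4 peak of Tfcp2l1 (13.8 kb) and an ESC Oct1 peak upstream of Pou5f1 (15.3 kb).

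Other genes of the network were read from 3 lists, to be set beside the shares over all genes within 10 kb, which were 35.2% for ESC Oct1, 40.2% for ESC Oct4, 24.6% at day 3 and 41.5% at day 6. No list was tested. The genes of these 3 lists were not matched to all genes in length, and a longer gene offers more room for a peak. Their counts are therefore a description. Of 12 partner factors of the naive network, 4 had an ESC Oct1 peak within 10 kb (Esrrb, Fgf4, Lin28a and Nr5a2) and 3 an ESC Oct4 peak (Esrrb, Fgf4 and Lin28a), with 4 at day 3 and 6 at day 6. For ESC Oct1 this is near the share over all genes. The median number of peaks per gene in that list was 0.0 in both ESC lists, as over all genes. Of 8 genes of the LIF and WNT inputs, 7 had a peak of each factor in ESCs, all but Il6st, the signalling chain of the LIF receptor. At day 3 the count was 5 and at day 6 it was 8. Of 8 genes of the formative and primed states, which follow the naive state, 5 had an ESC Oct1 peak and 7 an ESC Oct4 peak, with 3 at day 3 and 4 at day 6.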

How the data were processed

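Of 7 parental samples, 4 ChIP libraries had a peak list and were used, and the 3 inputs were not analysed here. The authors deposited 1 list per library with a whole-number score per peak (17709, 22817, 4867 and 7758 peaks for ESC Oct1, ESC Oct4, day 3 and day 6 Oct1). The submitters' processing notes name Novoalign 3.8.2 and build mm10. The peak caller, its threshold and the use of inputs are not given in the sources used here. The labels state 100 M read pairs of 50 bp per library. The number reached or mapped in each library is unknown, since the lists hold no counts.

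Starts were made 1-based. Genes came from RefSeq GRCm38.p6, which has the coordinates of mm10. Overlap meant at least 1 bp. The distances were 10 and 50 kb, and counting used Python 3.11.15 with pandas 2.3.3 and numpy 2.4.6. Counts per gene were checked with bedtools 2.31.1, which differed for 0 genes, and 200 of 200 planted peaks were placed correctly. Figures used matplotlib 3.10.9. Strand and start came from RefSeq promoter windows. All peaks within 10 kb of the 10 genes were named, and between 10 and 50 kb at least the strongest per gene and list. Members and lists were chosen with earlier results of these data known. The closing section gives the alternatives tried.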

Additional observations from a re-analysis of the deposited data

How the results depend on the processing

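For 15 results 46 values were obtained under alternative settings, and 33 of them stayed within 1.5 times the main count, or within the 95% binomial interval for a share of genes. Both limits only label a value as moved or not. The interval is no test, since the genes of the members' length range are a part of the genes it was built from. A distance of 5 kb left ESC Oct1 peaks at 5 member genes and day 3 peaks at 2, and the gene body alone left 4 for ESC Oct1 (23.9% of all genes), 3 for ESC Oct4 (28.0%) and 2 for day 3 (17.7%). A distance of 50 kb gave 8 genes for ESC Oct4. Assignment to the nearest protein-coding gene only left 3 genes for ESC Oct4 (32.2% of all genes). When each list was reduced to its upper 50% of scores, 2 genes (Pou5f1 and Klf4) and 2 peaks were left at day 6, and lists of equal length (4867 peaks) also left 2 genes there (30.2% of all genes). Among genes of the members' length range, the shares were 25.3% at day 3 and 44.2% at day 6. A gap of up to 500 bp raised the ESC Oct1 peaks shared with day 3 to 2, through the adjoining peaks at Utf1. These alternatives change counts through the peaks or genes they keep. The number of ESC Oct1 genes was 6 with the upper 50% of scores and 6 with lists of equal length (16.3% of all genes). With lists of equal length, 4 genes had an ESC Oct4 peak (14.7% of all genes) and 4 a day 3 peak (24.6%). Requiring the midpoint of a peak inside the distance changed none of the 4 gene counts, and requiring each peak to cover 50% of the other changed none of the 3 counts of shared peaks. The shares over all genes beside these counts were added after the counts had been seen. With 1 library per group and no read counts beyond a stated 100 M read pairs, a missing peak says only that none was listed.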
